A study of Mus musculus with 6 samples.

Results

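Sphingosine-1-phosphate (S1P) is a signalling lipid made from sphingosine by the kinases Sphk1 and Sphk2, and 9 genes that make, remove, export or sense it were followed in the aortas of 2 groups of mice. They are Sphk1 and Sphk2, the removing enzymes Sgpl1 and Sgpp1, the exporter Spns2, and the receptors S1pr1, S1pr2, S1pr3 and S1pr4. They were taken by gene symbol from the 18749 rows of the count files, all 9 had a row, and all 9 passed the filter on low counts that left 14466 genes. Sphk1 was chosen by its measured CPM, which was lower in one group of these same libraries, so its difference is described and not tested. The other 8 were added because they belong to the same pathway.

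Control recipients were Apoe-/- mice, which lack apolipoprotein E, given Apoe-/- bone marrow, and Sept2C111A recipients were Apoe-/- mice given Apoe-/-Sept2C111A bone marrow, whose septin-2 has alanine in place of a cysteine, as the name says. Both groups received angiotensin II for 28 days, a treatment that leads to aortic aneurysm in Apoe-/- mice, and RNA of the aorta was sequenced in 3 libraries per group. The altered septin-2 is carried by cells of donor marrow origin, so the wall cells of the recipient keep their own septin-2. The sources used here do not give age, sex, the treatment before transplantation or the share of host blood cells that remained, and do not say whether a library is 1 animal or a pool.

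S1P acts in a short loop. The kinases phosphorylate sphingosine, the lyase Sgpl1 cleaves S1P irreversibly, the phosphatase Sgpp1 returns it to sphingosine, and Spns2 carries it out of the cell, where it binds G protein-coupled receptors. In vessels S1pr1 is best known for endothelial barrier function and for the exit of lymphocytes from lymphoid tissue, S1pr2 and S1pr3 for signalling in smooth muscle and endothelium, and S1pr4 is mainly a receptor of blood cells.

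Library totals ran from 17082719 to 20494928 expected counts. Smooth muscle (Myh11), endothelial (Cdh5) and fibroblast (Pdgfra) markers were present in every library, and adipocyte markers were present too. Controls 1 and 3 stood apart from the other libraries in several marker lists, each given here as the summed CPM (expected counts scaled to a common library size) of its genes. All 8 neutrophil markers were detected, and their sum was 2915, 89.3 and 332 in controls 1, 2 and 3 against 16.3 to 28.8 in Sept2C111A recipients. The smooth muscle sum was 5859 in control 3 and 15640 to 23410 in the other 5 libraries. The sums of 8 monocyte and macrophage markers, 1300 to 1677 in controls and 878 to 1227 in Sept2C111A recipients, did not overlap, but Itgam, an integrin that neutrophils also carry, made up 985 CPM of the sum in control 1. Without Itgam the sums of the other 7 ran from 692 to 1525 in controls and from 830.0 to 1174 in Sept2C111A recipients and overlapped. The sums of 8 fibroblast markers, 3922 to 4982 and 7030 to 8780, did not overlap. Platelet markers did not overlap either, at 102 to 362 and 46.4 to 50.1. In whole tissue, fewer cells of a type and less RNA per cell cannot be told apart.

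The promoters of the 3 genes whose groups did not overlap, Sphk1, Sgpl1 and S1pr3, are printed here. Sphk1 was chosen for its difference, and controls lay wholly above the Sept2C111A libraries for 11.9% of all genes tested. Each is the 250 bases before a start site, 5′ to 3′ on the gene's strand, from RefSeq on GRCm38.p6, the release of the mm10 build. For Sphk1, with 5 start sites in the table, the one with most annotated transcripts starting within 50 bases was taken (5 of 16). Capitals mark matches on either strand to 7 motifs that were searched: AP-1 (TGANTCA), CRE (TGACGTCA), the GC box (GGGCGG), the antioxidant element (TGACNNNGC), the E-box (CACGTG), the hypoxia core (ACGTG, which the E-box contains) and the TATA box (TATAAA).
Sphk1: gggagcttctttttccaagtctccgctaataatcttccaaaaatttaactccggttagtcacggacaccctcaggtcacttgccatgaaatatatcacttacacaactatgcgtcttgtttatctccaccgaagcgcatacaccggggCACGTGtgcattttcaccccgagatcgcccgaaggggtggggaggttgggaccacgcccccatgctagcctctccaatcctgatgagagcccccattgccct
Sgpl1: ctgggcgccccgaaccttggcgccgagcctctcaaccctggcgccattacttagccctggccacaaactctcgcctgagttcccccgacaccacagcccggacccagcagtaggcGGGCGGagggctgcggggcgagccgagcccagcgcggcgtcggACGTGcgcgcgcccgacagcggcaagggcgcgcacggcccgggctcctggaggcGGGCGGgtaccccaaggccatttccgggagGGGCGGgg
S1pr3: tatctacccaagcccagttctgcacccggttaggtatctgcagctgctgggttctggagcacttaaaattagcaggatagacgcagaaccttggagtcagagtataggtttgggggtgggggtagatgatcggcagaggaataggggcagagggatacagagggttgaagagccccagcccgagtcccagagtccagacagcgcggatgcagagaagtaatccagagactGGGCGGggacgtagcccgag

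The Sphk1 window (chr11:116532201-116532450, plus strand) holds 1 E-box, 102 bases before the start. An E-box occurs in 6.02% of the 32851 promoters of the same length. The Sgpl1 window (chr10:61147685-61147934, minus strand) holds 3 GC boxes and 1 hypoxia core, and at 74.8% G and C it is richer in these bases than the median promoter (52.4%). In the annotation used for exon lengths, 19 bases of this window lie in Sgpl1 exons. The GC box 8 bases before the start is among them. The S1pr3 window (chr13:51408368-51408617, plus strand) holds 1 GC box, 20 bases before the start. GC boxes occur in 32.7% and hypoxia cores in 16.6% of all promoters. None of the 7 motifs was shared by all 3 windows.

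Sphk1, the inducible kinase of the pathway, stood at a lower level in all 3 Sept2C111A libraries than in any control. It lies on chromosome 11, from 116530925 to 116536674 (mm10, plus strand). Its level was 38.6, 44.5 and 47.1 CPM in controls 1, 2 and 3 and 19.2, 19.2 and 12.2 CPM in Sept2C111A libraries 1, 2 and 3. The group means were 43.4 ± 4.36 and 16.9 ± 4.05 CPM (SD, n = 3), a 2.58-fold difference, or -1.36 on the log2 scale (SE 0.21). The raw values behind it were 692 to 953 reads in controls and 219 to 366 in Sept2C111A recipients, all whole numbers. Of the exon bases of Sphk1, 4.02% also belong to exons of Gm29292, an antisense gene on the opposite strand. The strand setting is not stated, so reads of that stretch cannot be told apart.

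Within the control group Sphk1 ran from 38.6 to 47.1 CPM, while the summed neutrophil markers of the same libraries ran from 89.3 to 2915 CPM. Without controls 1 and 3, the log2 fold change of Sphk1 was -1.40 (SE 0.29), in a fit with 1 control library. The marker sums of neutrophils, platelets and fibroblasts did not overlap between the groups, and their part in the Sphk1 difference was not tested.

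Sphk2, the second kinase, is found mainly in the nucleus and at internal membranes, and its groups overlapped. Its gene lies on chromosome 7, from 45709467 to 45718002 (minus strand). Its level was 47.6, 45.2 and 32.1 CPM in controls and 41.5, 39.7 and 45.4 CPM in Sept2C111A recipients, with control 3 the lowest of the 6 libraries. The log2 fold change was 0.02 (95% interval -0.40 to 0.44, edgeR adjusted p = 0.962). Its sign turned when control 3 (-0.14) or Sept2C111A library 3 (-0.02) was left out. Of the exon bases of Sphk2, 13.0% also belong to exons of Dbp on the opposite strand, whose own log2 fold change was 2.35, and 8.97% to Rpl18. Without a stated strand setting, reads of such stretches cannot be told apart.

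The ratio of the kinases was taken per kilobase of exon. Sphk1 stood at 0.708, 0.859 and 1.28 times Sphk2 in controls 1, 2 and 3, and at 0.404, 0.421 and 0.234 times in Sept2C111A libraries 1, 2 and 3. Sphk1 was the more abundant kinase transcript in control 3 alone. The group means of this ratio were 0.948 ± 0.295 and 0.353 ± 0.103 (SD, n = 3).

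**Figure D1:**
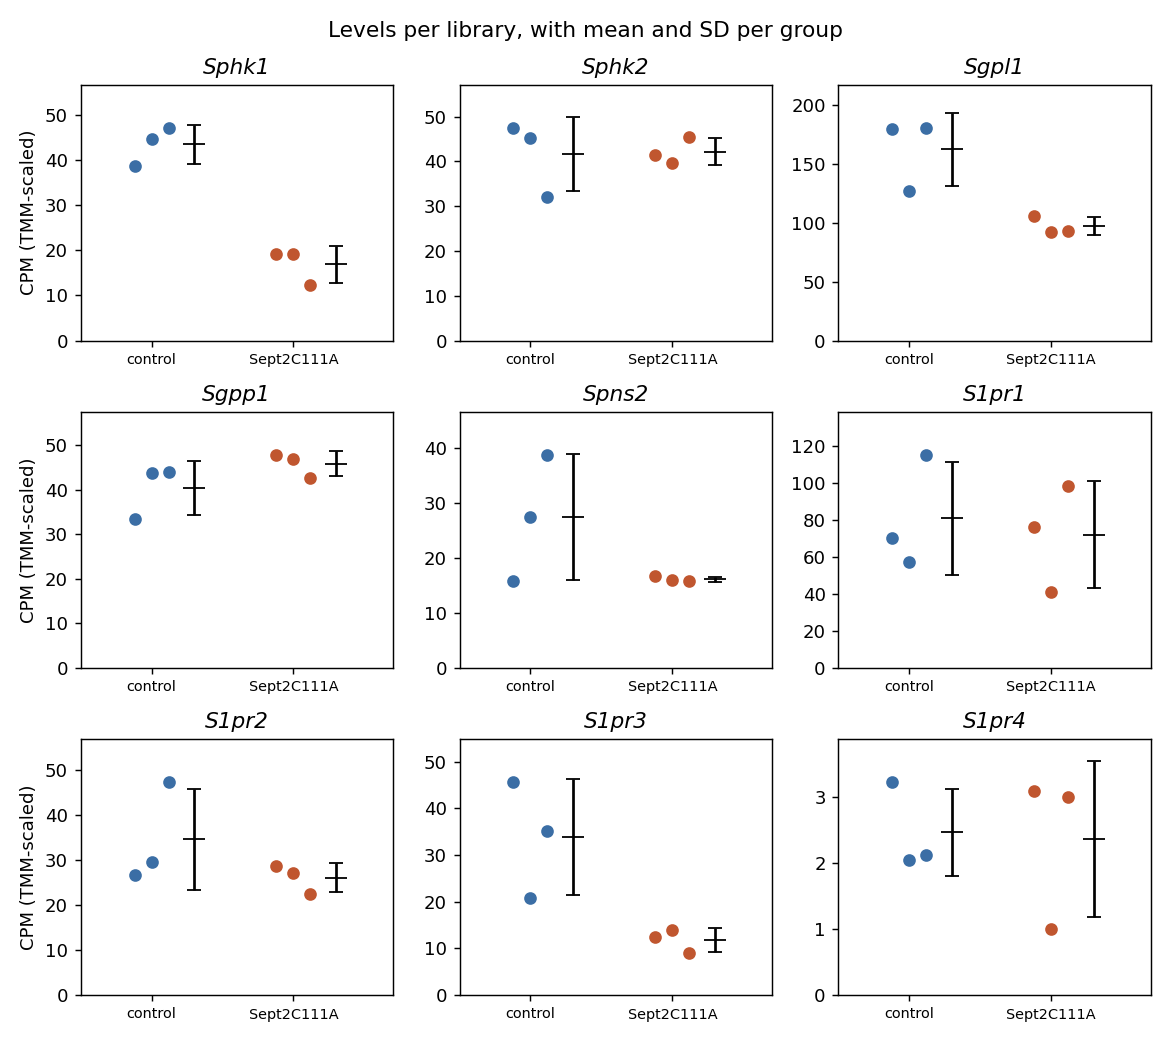
Level of each gene in each library, in CPM on TMM-scaled library sizes (linear axes from 0). Points are libraries, blue for control and orange for Sept2C111A recipients, and bars give the mean ± SD over 3 libraries. The groups do not overlap for Sphk1, Sgpl1 and S1pr3.

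Of the other 8 genes, 0 passed edgeR's quasi-likelihood test after adjustment over all 14466 genes, where 0% of all genes passed. At an unadjusted p under 0.05, 3 of the 8 were lower (S1pr3, Sgpl1 and Spns2) and 0 higher, against 8.83% and 6.17% of all genes. DESeq2, run as another test, called 2 of the 8 lower (S1pr3 and Sgpl1) and 0 higher, against 2.88% and 1.09% of all genes. The 3 controls lay wholly above the Sept2C111A libraries for 2 of the 8 and wholly below for 0, against 11.9% and 11.2% of all genes. The median log2 fold change of the 8 was -0.29, beside 0.00 over all genes tested. The genes were chosen with results of these libraries known, so these counts are a description.

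Sgpl1, the lyase that ends the pathway by cleaving S1P, lies on chromosome 10, from 61098642 to 61147703 (minus strand). Its raw counts were 1672 to 3653 reads per library. Its level was 179, 126 and 181 CPM in controls and 106, 92.4 and 93.2 CPM in Sept2C111A recipients. Controls 1 and 3 were far above the rest, while control 2 lay closer to the highest Sept2C111A library than to them. The group means were 162 ± 30.9 and 97.0 ± 7.38 CPM, a 1.67-fold difference, with a log2 fold change of -0.74 (95% interval -1.17 to -0.31, edgeR adjusted p = 0.316). DESeq2 called it with all libraries (adjusted p = 0.0140), but in 1 of 6 fits with a library left out, the one without control 2 (DESeq2 adjusted p = 6.19e-08). In the other 5 fits the DESeq2 adjusted p ran from 0.0696 without Sept2C111A library 1 to 0.202 without Sept2C111A library 3. Without controls 1 and 3 its log2 fold change was -0.38 (SE 0.15), nearer to 0 than with all libraries.

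Sgpp1, the phosphatase that returns S1P to the sphingosine pool, lies on chromosome 12, from 75714249 to 75735729 (minus strand), and its groups overlapped. Its level was 33.5, 43.9 and 44.1 CPM in controls and 47.9, 46.9 and 42.6 CPM in Sept2C111A recipients. Control 1 alone was below the Sept2C111A range. The log2 fold change was 0.18 (95% interval -0.17 to 0.53, edgeR adjusted p = 0.545).

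Spns2, the S1P exporter of endothelium, lies on chromosome 11, from 72451638 to 72489904 (minus strand). Its level was 15.9, 27.5 and 38.9 CPM in controls, a wide spread, and 16.7, 15.9 and 15.8 CPM in Sept2C111A recipients, the narrowest of the set with an SD of 2.88% of the mean. Control 1 lay within the Sept2C111A range and controls 2 and 3 above it. The log2 fold change was -0.77 (95% interval -1.52 to -0.01, edgeR adjusted p = 0.331). It was -0.43 without control 3 and -1.03 without control 1, and DESeq2 called Spns2 in the fit without control 1 alone (adjusted p = 0.00203). Summed endothelial markers were 768, 757 and 1360 CPM in controls 1, 2 and 3. In Sept2C111A libraries 1, 2 and 3 they were 1339, 696 and 1455 CPM. These sums overlapped between the groups, and the part of endothelial content in the Spns2 levels was not tested.

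S1pr3, a receptor that couples to several classes of G protein, had the largest difference among the receptors. It lies on chromosome 13, from 51408639 to 51422797 (plus strand). Its level was 45.7, 20.8 and 35.1 CPM in controls and 12.4, 13.9 and 8.96 CPM in Sept2C111A recipients. The controls differed among themselves by more than 2 times, yet the lowest of them, control 2, was above every Sept2C111A library. The group means were 33.8 ± 12.5 and 11.7 ± 2.52 CPM, a 2.88-fold difference, or -1.53 on the log2 scale (95% interval -2.31 to -0.75, edgeR adjusted p = 0.316).

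DESeq2 called S1pr3 lower with all libraries (adjusted p = 0.00352) and in 5 of 6 fits with a library left out. The fit without Sept2C111A library 3, which had the lowest S1pr3, gave a DESeq2 adjusted p of 0.0777. Without controls 1 and 3 the log2 fold change was -0.83 (SE 0.29), nearer to 0 than with all libraries, but still negative. Within the controls the neutrophil marker sum had the same order as S1pr3, highest in control 1 and lowest in control 2. That order was shared by the platelet, lymphocyte and erythroid sums, and by the monocyte and macrophage sum with Itgam. The smooth muscle marker sum was lowest in control 3 and overlapped between the groups. The part of blood cell and smooth muscle content in the S1pr3 difference was not tested.

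S1pr1, the receptor of endothelial barrier function, lies on chromosome 3, from 115710433 to 115715072 (minus strand), and its spread within each group was larger than the difference between them. Its level was 69.8, 57.1 and 115 CPM in controls and 76.1, 40.9 and 98.4 CPM in Sept2C111A recipients. The log2 fold change was -0.17 (95% interval -1.10 to 0.77, edgeR adjusted p = 0.843), and it was 0.18 without control 3 and 0.12 without Sept2C111A library 2.

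S1pr2, a receptor that couples to several G proteins, lies on chromosome 9, from 20962361 to 20976781 (minus strand). Its level was 26.6, 29.6 and 47.3 CPM in controls and 28.5, 27.1 and 22.4 CPM in Sept2C111A recipients. Control 3 was high and the other 5 libraries lay close together. The log2 fold change was -0.41 (95% interval -0.99 to 0.18, edgeR adjusted p = 0.429), and -0.11 without control 3.

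S1pr4, the receptor of blood cells, lies on chromosome 10, from 81497747 to 81500132 (minus strand), and was the scarcest of the set, with 17.9 to 58.5 reads per library. Its level was 3.24, 2.05 and 2.13 CPM in controls and 3.10, 0.995 and 3.00 CPM in Sept2C111A recipients. The groups overlapped throughout, and the log2 fold change was -0.06 (95% interval -1.24 to 1.12, edgeR adjusted p = 0.958). It was 0.19 without control 1 and 0.31 without Sept2C111A library 2.

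**Figure D2:**
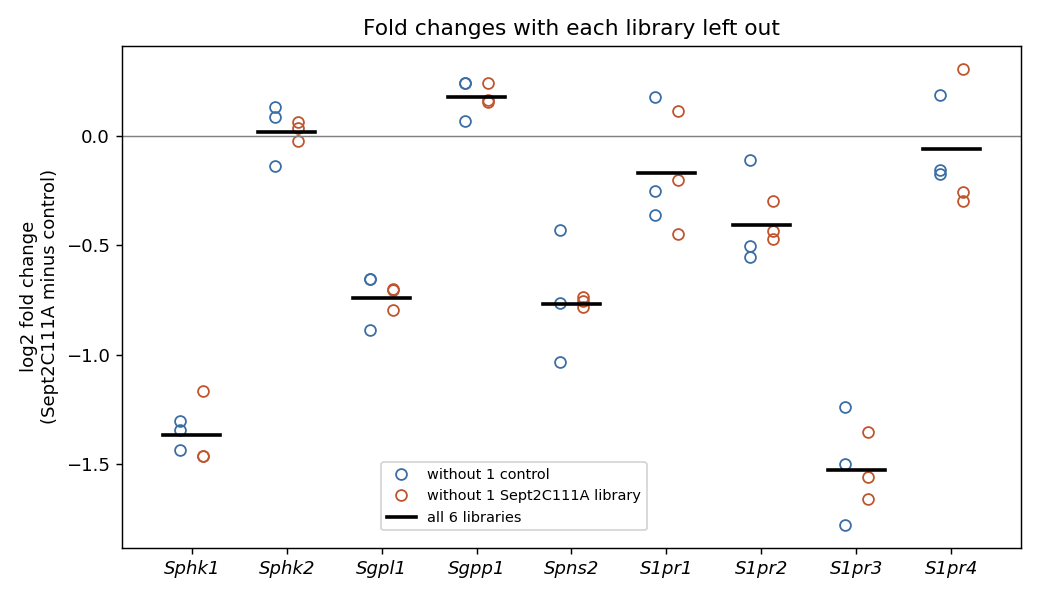
Log2 fold change (Sept2C111A minus control) of each gene in edgeR fits. Black bars are fits with all 6 libraries and circles are fits with 1 library left out, blue for a control and orange for a Sept2C111A library. Those of Sphk1 stay between -1.46 and -1.16 and those of S1pr3 between -1.78 and -1.24, while those of Sphk2, S1pr1 and S1pr4 lie on both sides of 0. Sphk1 was chosen for its difference in these same libraries, so its range is a description.

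Levels of different genes were compared per kilobase of exon. In controls the order of the mean levels in CPM per kb was S1pr1 (26.5), Sgpl1 (26.4), Sphk2 (10.01), Sphk1 (9.10), S1pr3 (7.58), Sgpp1 (7.16), Spns2 (6.72), S1pr2 (4.33) and S1pr4 (1.04). In Sept2C111A recipients it was S1pr1 (23.6), Sgpl1 (15.8), Sphk2 (10.1), Sgpp1 (8.11), Spns2 (3.95), Sphk1 (3.53), S1pr2 (3.26), S1pr3 (2.63) and S1pr4 (0.992). By these means Sphk1 and S1pr3 stood above Sgpp1 and Spns2 in controls and below them in Sept2C111A recipients, but single libraries differed. S1pr3 (4.666) was below Sgpp1 (7.763) and Spns2 (6.735) in control 2, and below Spns2 in control 3 (7.855 against 9.519). Sphk1 (4.016) was above Spns2 (3.898) in Sept2C111A library 2. Over the 6 libraries Sgpl1 (15.0 to 29.4 CPM per kb) lay above Sphk2 (7.73 to 11.4), and S1pr2 (2.81 to 5.93) above S1pr4 (0.417 to 1.36), while the levels of S1pr1 and Sgpl1 overlapped. S1pr5, the remaining S1P receptor, stood at 0.0396 to 0.490 CPM per kb and did not pass the filter.

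Among the 5 receptors S1pr1 made up most of the summed level per kilobase in every library, 60.4%, 66.9% and 71.96% in controls and 76.3%, 65.9% and 83.1% in Sept2C111A recipients. S1pr3 held 27.0%, 16.7% and 15.0% in controls and 8.48%, 15.2% and 5.16% in Sept2C111A recipients. The S1pr3 shares thus overlapped, although its levels did not, and Sept2C111A library 2 was also the one with the lowest S1pr1. The mean share of S1pr3 was 19.5% ± 6.49 in controls and 9.62% ± 5.13 in Sept2C111A recipients (SD, n = 3). S1pr2 held 7.24% to 16.6% over the 6 libraries.

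**Figure D3:**
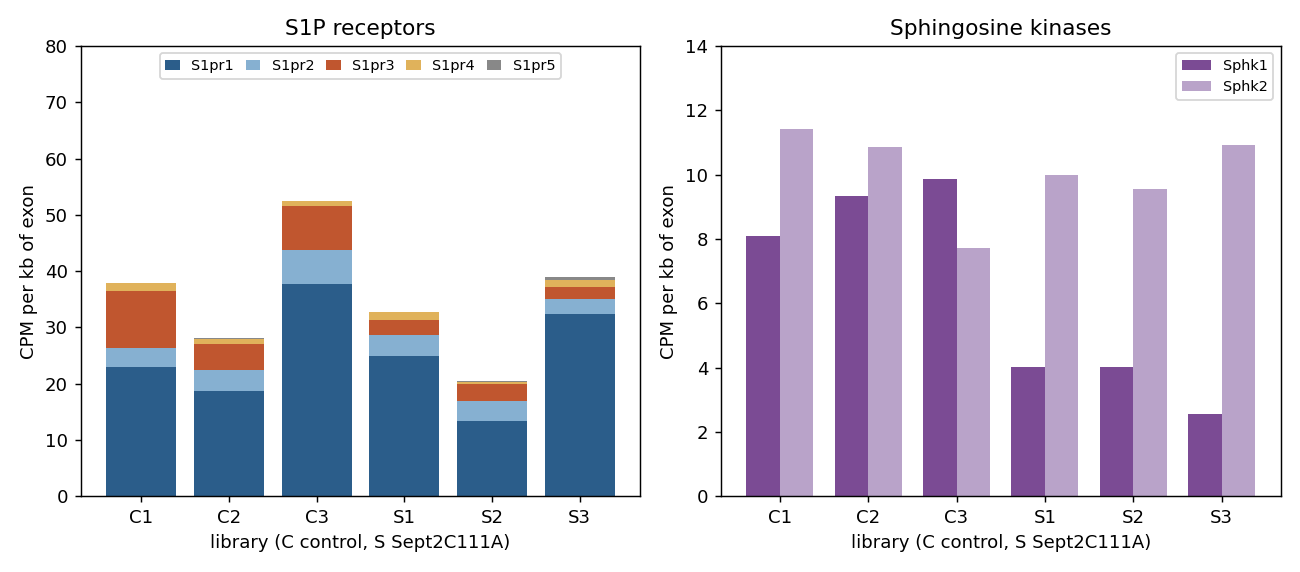
Left, levels of the S1P receptors in each library in CPM per kb of exon, stacked so that bar height is their sum. Right, the sphingosine kinases on the same scale. S1pr1 is the largest segment in all 6 bars, and Sphk1 is above Sphk2 in control 3 alone.

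The genes whose pattern over the 6 libraries was most like that of Sphk1 were sought among 12450 other genes that passed the filter on low counts, had a mean count of at least 50 and were neither predicted genes nor rows whose name was stored as a date. Likeness was the root mean square difference of log2 CPM after each gene was centred on its own mean. The nearest were Il21r, the interleukin-21 receptor (0.14), Hells, a chromatin remodeller of dividing cells (0.16), Tcf7, a transcription factor of T cells (0.18), Chek1, a cell cycle checkpoint kinase (0.20), and Tmem8, a membrane protein (0.20). Il21r stood at 13.6, 14.9 and 13.4 CPM in controls and 7.15, 5.97 and 3.50 CPM in Sept2C111A recipients. Since Sphk1 was chosen for its difference, genes near it share that difference by construction.

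Of the S1P genes, S1pr3 was nearest to Sphk1 (0.39, with 117 genes nearer), then Sgpl1 (0.44), Spns2 (0.50) and S1pr2 (0.56). Sphk2 (0.80), Sgpp1 (0.81), S1pr1 (0.86) and S1pr4 (0.92) were far from it. S1pr3 and Sphk1 were both lowest in Sept2C111A library 3, but in controls S1pr3 was highest in control 1, where Sphk1 was lowest of the 3.

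**Figure D4:**
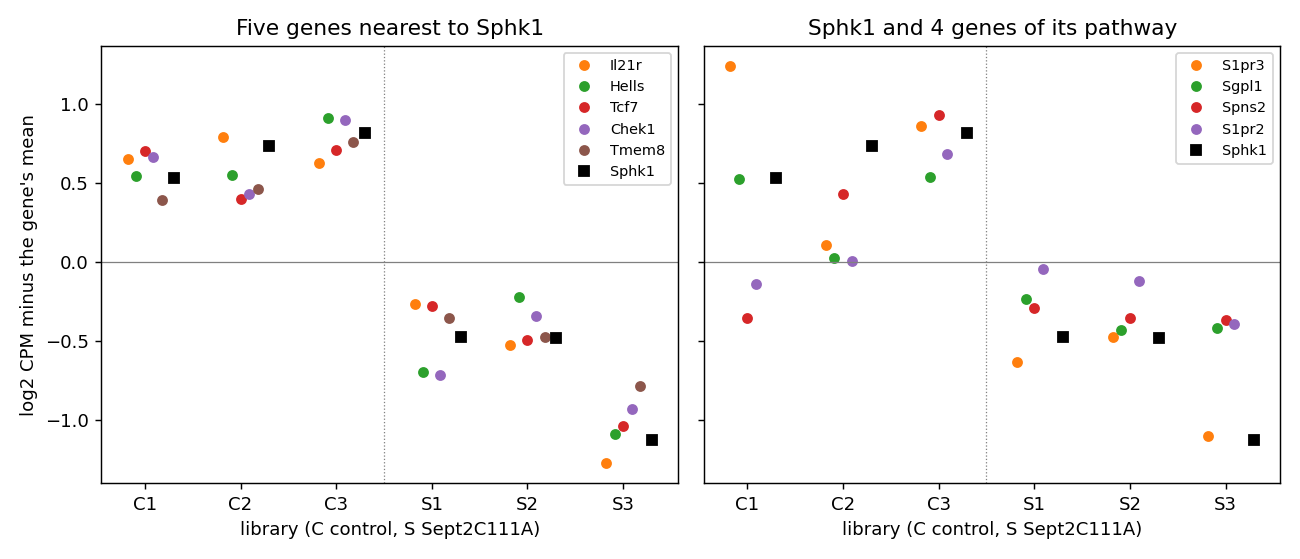
Log2 CPM minus the gene's mean over the 6 libraries (C, control; S, Sept2C111A). Black squares are Sphk1, and coloured points are, on the left, the 5 nearest genes of all and, on the right, the 4 nearest S1P genes. Points on the left lie mostly near the squares. Tcf7 in control 2 (0.40 against 0.73) and Tmem8 in Sept2C111A library 3 (-0.78 against -1.13) lie further from the squares. On the right S1pr3, Spns2 and S1pr2 depart from them in control 1, and Sgpl1, S1pr2 and S1pr3 in control 2. Sgpl1, Spns2 and S1pr2 also depart from them in Sept2C111A library 3. S1pr2 lies above the squares in Sept2C111A libraries 1 (-0.04 against -0.47) and 2 (-0.12 against -0.48) too.

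The other genes of sphingolipid metabolism were taken from 5 lists with 71 entries, of which 70 had a row and 64 were tested. None of the 64 passed edgeR's test, with 7 lower and 2 higher at an unadjusted p under 0.05 (10.9% and 3.12%, beside 8.83% and 6.17% of all genes), and 34 had a log2 fold change below 0 (53.1%, beside 49.9% of all genes). DESeq2 called 1 of them lower and 0 higher (1.56% and 0%, beside 2.88% and 1.09% of all genes). The controls lay wholly above for 9 and wholly below for 8 of the 64 (14.1% and 12.5%, beside 11.9% and 11.2% of all genes). These shares are near those of all genes. Their median log2 fold change was -0.04.

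Ceramide synthesis supplies the backbone from which sphingosine is later released, and its 13 tested genes had a median log2 fold change of 0.00, with 7 below 0. Sptlc2, a subunit of the enzyme of the first step, stood at 89.5 ± 20.6 CPM in controls and 60.1 ± 4.26 CPM in Sept2C111A recipients. Cers6, a ceramide synthase, stood at 36.1 ± 19.9 and 16.6 ± 3.14 CPM, and Cers4, another ceramide synthase, at 30.7 ± 8.52 and 47.3 ± 2.37 CPM. The groups did not overlap for these 3 genes and for Ormdl3, a regulator of the first step named after its values were seen (95.9 ± 2.42 and 118 ± 15.05 CPM). Of these 4, 2 were lower and 2 higher, 15.4% and 15.4% of the 13 tested, beside 11.9% and 11.2% of all genes. The edgeR adjusted p was 0.316 for the first 3 and 0.349 for Ormdl3.

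Ceramidases and the enzymes that release ceramide, which provide sphingosine to the kinases, had a median of -0.01 over 14 genes, 7 of them below 0. The 3 of smallest p were Smpd1, the acid sphingomyelinase (76.8 ± 22.3 and 105 ± 3.59 CPM), Smpd3, a neutral sphingomyelinase (12.7 ± 3.94 and 19.8 ± 5.03 CPM), and the ceramidase Acer3 (29.7 ± 5.15 and 23.8 ± 1.73 CPM). Among 7 genes that use ceramide, 6 had a log2 fold change below 0 and the median was -0.18. Ugcg, which makes glucosylceramide, stood at 69.8, 45.0 and 156 CPM in controls and 44.8, 33.5 and 33.3 CPM in Sept2C111A recipients, so control 3 set most of its control mean. Cerk, the ceramide kinase, and Col4a3bp, the ceramide transporter, had log2 fold changes of -0.30 and -0.23.

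Other genes that handle S1P had a median of -0.20 over 10 tested genes, 6 of them below 0. Plpp3, a surface phosphatase that removes S1P and related lipids outside the cell, stood at 201 ± 35.6 CPM in controls and 281 ± 35.0 CPM in Sept2C111A recipients, 0.48 higher on the log2 scale (SE 0.19, edgeR adjusted p = 0.328), with groups that did not overlap. Sgpp2, the inducible S1P phosphatase, was at 6.03 CPM in control 1 and at 0.263 to 0.684 CPM in the other 5 libraries. Abca1, a lipid transporter, stood at 254 ± 55.2 and 171 ± 51.8 CPM, and Mfsd2b, the S1P exporter of red cells and platelets, at 4.49 ± 0.99 and 4.10 ± 0.796 CPM. Apom, the S1P carrier of plasma, was at 0 in 4 of 6 libraries.

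Receptor effectors, the G proteins and other signalling components downstream, had a median of 0.02 over 20 genes, 8 of them below 0. At an unadjusted edgeR p under 0.05, 3 were lower (15%) and 0 higher, beside 8.83% and 6.17% of all genes. The controls lay wholly above for 5 (25%) and wholly below for 3 (15%), beside 11.9% and 11.2% of all genes. Arrb2, an arrestin that turns off receptors and is abundant in blood cells, was the gene called by DESeq2 (adjusted p = 0.0107). That call was lost in 2 of 6 fits with a library left out, without Sept2C111A library 2 (DESeq2 adjusted p = 0.0671) and without Sept2C111A library 3 (0.168). It stood at 137, 63.7 and 88.8 CPM in controls and 48.7, 34.8 and 36.7 CPM in Sept2C111A recipients, a difference of -1.27 on the log2 scale (SE 0.30), which did not pass edgeR (adjusted p = 0.316). Plcb2, a phospholipase C of blood cells, stood at 15.9 ± 7.01 and 6.38 ± 2.07 CPM, with overlapping groups. Gna13, a G protein to which S1pr2 couples, stood at 95.9 ± 19.4 and 70.5 ± 3.00 CPM, with groups that did not overlap. Arrb2 and Plcb2 were highest in control 1, the library richest in neutrophil markers, and the part of that content was not tested.

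**Figure D5:**
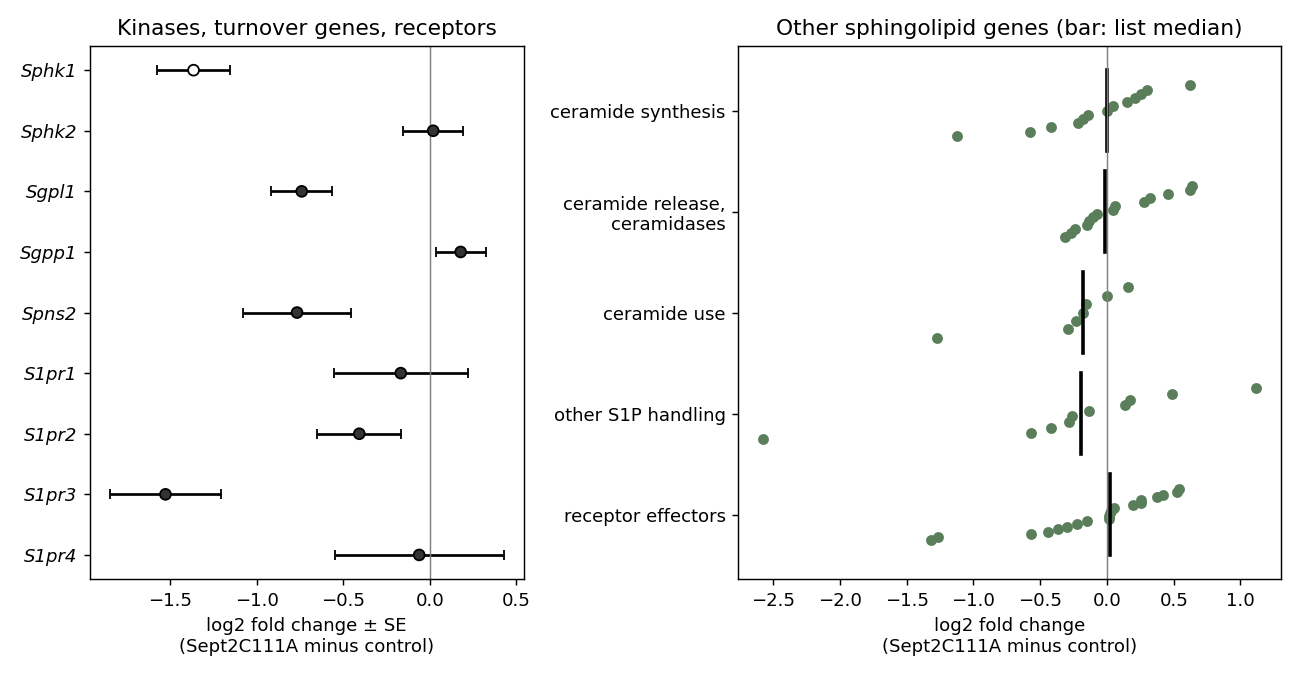
Log2 fold changes from the edgeR fit, Sept2C111A minus control. Left, the 9 S1P genes with their SE (Sphk1 as an open circle, since it was chosen for its difference). Right, the 64 tested genes of the 5 sphingolipid lists, 1 point per gene, with black bars at the list medians, which lie between -0.20 and 0.02.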

How the data were processed

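Per the submitters' processing notes, reads were handled with Bowtie2, RSEM 1.3.1 and DESeq2 1.4.5 on build mm10; the sources used here do not give the annotation, read filters or strand setting. The authors deposited expected counts per gene, 1 file per library, not normalised, with 34.6% to 35.9% of the values fractional because RSEM divides shared reads. Of the 9 genes, Sphk2, Spns2 and S1pr4 held fractional counts. In 1 Sept2C111A file the heading names a different library from the sample recorded for it, and that recorded sample was used.

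Counts were rounded and tested in R 4.3.3 with edgeR 4.0.16 (filterByExpr, minimum count 10, TMM, two-sided quasi-likelihood F test on group, Benjamini-Hochberg adjustment over all genes, threshold 0.05). Levels are CPM after TMM scaling; log2 fold changes are Sept2C111A minus control. SE and 95% intervals, not adjusted for the number of genes, were derived from the F statistic. DESeq2 1.42.0 and limma 3.58.1 (voom with quality weights) were alternatives, with other scalings, filters, left-out libraries and a replicate block. The edgeR, DESeq2 and limma-voom fits were tested on simulated data with the same dispersion for all genes. The other scalings and filters, the left-out libraries and the replicate block were not. Exon lengths and coordinates (1-based) are from the GENCODE annotation of mm10.

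RefSeq promoters were found for 8 of 9 genes. Replicate libraries differed far beyond sampling noise (chi-square per degree of freedom 50.2 to 237), so none was counted as a duplicate. P-values measure the spread between these samples only.

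The 9 genes, the sphingolipid lists and the marker lists were chosen with earlier results of these data known. Named genes are the 9, the 3 of smallest p per list, S1pr5, Sgpp2, Apom, Mfsd2b, Plpp3, list genes called by a tool, and the 5 nearest to Sphk1.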

Additional observations from a re-analysis of the deposited data

How the results depend on the processing

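No gene among all tested, the 8 S1P genes other than Sphk1 or the sphingolipid lists passed edgeR under any scaling, filter or left-out library, nor with limma-voom. With the replicate number as a block (replicate block), edgeR also called 0 genes. Same-numbered libraries deviated together with r = 0.01, 0.15 and -0.17 over genes. Differently numbered ones ran from -0.21 to 0.16. The labels state no pairing, and 3 libraries per group cannot decide whether the numbers pair them. DESeq2 called 575 genes, 2 of the 8 and 1 gene of the lists. With 1 library left out, an alternative chosen after seeing the data, DESeq2 called 332, 1769 and 323 genes without controls 1, 2 and 3. Without Sept2C111A libraries 1, 2 and 3 it called 240, 660 and 133 genes. Of the 8 it called 0 to 2 in these fits. Without control 2 it called 12 list genes, 6 of them higher, among 1769 of 14696 genes tested. In the other fits it called 0 or 1 list gene. Signs turned for Sphk2, S1pr1 and S1pr4 alone. With limma-voom they stood at -0.0099, 0.046 and 0.17, and without controls 1 and 3 together at -0.10, 0.33 and 0.21. With 1 library left out, Sphk2 ran from -0.14 to 0.13, S1pr1 from -0.45 to 0.18 and S1pr4 from -0.30 to 0.31. By DESeq2 the turned values were 0.17 (S1pr4, without control 1), -0.14 and 0.17 (Sphk2 and S1pr1, without control 3), 0.10 and 0.30 (S1pr1 and S1pr4, without Sept2C111A library 2) and -0.035 (Sphk2, without Sept2C111A library 3). The fit without controls 1 and 3 has 1 control so its spread comes from the Sept2C111A group. S1pr4 did not pass the filter at a mean count of 50. Taking the longest transcript as gene length moved the S1pr1 and S1pr3 shares and the kinase ratio by less than 1 SD. The cause of these changes was not tested. Depth limits S1pr4 most, with 17.9 reads in its lowest library.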

Other observations

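S1pr1 was set beside the endothelial markers of the same libraries, a ratio chosen after its values were seen and therefore given with no test. Per 1000 CPM of 8 summed endothelial markers, S1pr1 stood at 91.0, 75.5 and 84.6 CPM in controls 1, 2 and 3 and at 56.9, 58.8 and 67.6 CPM in Sept2C111A libraries 1, 2 and 3. These ratios did not overlap between the groups, but Pecam1 and Vwf made up much of the sums. Over the other 6 markers the ratios were 228, 161 and 149.7 in controls and 161, 137 and 189 in Sept2C111A recipients, and they overlapped, so the separation depended on which markers were summed. The endothelial marker sums ran from 757 to 1360 CPM in controls and from 696 to 1455 CPM in Sept2C111A recipients.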
